A study of Mus musculus with 6 samples.

Results

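The 128 alpha variable segments of the mouse T cell receptor (Trav) were examined in regulatory T cells from the bone marrow of mice with and without myeloma. The members are all genes whose name begins with Trav and a number, 128 of the 47643 genes in each of the 6 deposited gene tables. Cells were sorted as positive for CD4 and for a green fluorescent reporter of FOXP3, the transcription factor that defines regulatory T cells, and their RNA was sequenced in bulk. The myeloma group is 3 libraries (replicates 3, 4 and 5) from mice injected with Vk*MYC, a mouse myeloma model in which MYC is switched on in B-lineage cells. The control group is 3 libraries (replicates 1, 3 and 5) from control mice, and animals of both groups carry the FOXP3-GFP reporter. The sources used here do not give the strain, the age, the interval after injection or what control mice received. The design names 3 mice in each group, but no label ties a library to an animal, so a p-value describes only how far these libraries spread. Where values are given per library, they follow the order myeloma replicate 3, 4, 5 and control replicate 1, 3, 5.

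The alpha chain of the receptor is assembled in developing T cells by joining 1 variable segment (Trav) to 1 joining segment (Traj), which is then spliced to the constant gene Trac. Each T cell therefore transcribes mainly the segment it rearranged, and in a sorted population the spread of transcripts over segments is 1 measure of how varied the receptors are. In the mouse a block of the locus is present in further copies, whose segments carry a d or n in their names (Trav9d-4 and Trav9n-4 beside Trav9-4). Segments with dv in their names can also be joined in the delta chain.

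All 128 segments lie on the plus strand of chromosome 14, between 52427928 and 53977678 (GRCm38, the assembly that mm10 denotes), a span of 1549.751 kb. Traj segments begin downstream, at 54155005. GENCODE release M21 annotates 108 Trav genes as variable genes and 20 as pseudogenes. By name there are 23 families, 55 segments without a letter, 39 d copies and 34 n copies. Taking each segment together with its d and n copies gives 57 copy sets.

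How far such copies can be told apart limits every value per segment, so the last 60 coding bases are shown for 4 copy sets that the results turn on. These bases end where the unrearranged segment is joined to Traj, and the capitals mark the last in-frame cysteine codon, which opens the variable loop that contacts antigen. All coordinates are on the plus strand of GRCm38, and sequences are those of the GENCODE M21 transcripts. The Trav9-4 set holds the segment with the highest mean share, Trav9n-4 (chr14:53294971-53295030), with Trav9d-4 (chr14:52983801-52983860) and Trav9-4 (chr14:53676571-53676630).
Trav9n-4: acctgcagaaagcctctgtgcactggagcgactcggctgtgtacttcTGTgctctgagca
Trav9d-4: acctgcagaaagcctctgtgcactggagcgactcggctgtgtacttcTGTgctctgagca
Trav9-4: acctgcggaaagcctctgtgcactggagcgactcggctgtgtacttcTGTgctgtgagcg
Over these 60 bases Trav9d-4 had no difference from Trav9n-4, and Trav9-4 had 3. The Trav4-4 set is the copy set with the largest summed share, and consists of Trav4d-4 (chr14:52991330-52991389), Trav4n-4 (chr14:53302500-53302559) and Trav4-4-dv10 (chr14:53684118-53684177).
Trav4d-4: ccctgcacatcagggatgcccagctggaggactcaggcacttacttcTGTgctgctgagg
Trav4n-4: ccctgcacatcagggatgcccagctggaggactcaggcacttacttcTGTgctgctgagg
Trav4-4-dv10: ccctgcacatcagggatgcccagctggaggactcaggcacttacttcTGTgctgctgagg
All 3 were identical over this stretch. Trav4d-4 and Trav4n-4 were also identical over their whole coding sequence, while Trav4-4-dv10 differed from them at 8 positions. Trav7-6 (chr14:53717232-53717291), the segment that passed the test between groups, is shown with its n copy Trav7n-6 (chr14:53325149-53325208) and with Trav7-4 (chr14:53461679-53461738), another member of its family.
Trav7-6: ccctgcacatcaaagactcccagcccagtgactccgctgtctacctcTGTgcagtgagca
Trav7n-6: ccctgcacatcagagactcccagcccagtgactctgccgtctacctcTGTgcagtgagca
Trav7-4: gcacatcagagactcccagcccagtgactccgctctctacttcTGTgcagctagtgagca
Aligned at the cysteine codon, Trav7-6 had 3 differences from Trav7n-6 over 60 bases and 7 from Trav7-4 over 56. Trav11d (chr14:52824853-52824912) and Trav11 (chr14:53519800-53519859) belong to the family used by invariant natural killer T cells, a T cell lineage with a nearly fixed alpha chain.
Trav11d: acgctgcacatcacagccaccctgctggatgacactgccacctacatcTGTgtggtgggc
Trav11: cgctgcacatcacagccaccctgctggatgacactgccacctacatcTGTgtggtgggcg
The coding sequence of Trav11d is that of Trav11 without 1 base, and the shared 59 bases show no difference.

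Across all copy sets, 83 pairs of copies had a median coding identity of 97.6%, and the lowest was 88.1%. In 17 pairs, holding 34 segments, the transcripts were identical, and 16 of these are a d copy with its n copy. RSEM, the program behind the deposited counts, shares reads that fit several genes between them. In the 15 identical pairs with any count, both segments had the same expected count in every library, within 0.01. No other pair of segments with counts did so. These segments held 24.4% of all Trav counts, averaged over the libraries, and 20 of them passed the filter on low counts described further on, so a d and an n copy of such a pair are 1 measurement written down in 2 rows.

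Trav counts were few. All segments together had 2515, 1885 and 2019.5 expected counts in the myeloma libraries, and 2277, 1818 and 2199.7 in the control libraries. Each library held 10240620 to 13314631 expected counts in all, of which 0.0156% to 0.0209% fell on Trav. Between 95 and 99 segments had a count above 0 in a library, and 55 to 71 had at least 10 counts. The 60 Traj segments were all listed at 0 with an effective length of 0, since the longest is 72 bases, so joining segments were not measured. A share of 3.98%, that of Trav9n-4 in myeloma replicate 3, rested on 100.2 counts. A segment at 0 could still hold up to 0.119% of the Trav counts of the deepest library and 0.165% of those of the shallowest (3 counts). Counts are not independent molecules, so such limits and the intervals given here cover counting error only.

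Of the 128 segments, 17 were at 0 in every library. Pseudogenes made up 14 of these, and 6 of the 20 pseudogenes had a count anywhere. Together the pseudogenes took 0.12% to 0.775% of Trav counts. The 3 segments annotated as variable genes that were at 0 throughout were Trav11, Trav7d-2 and Trav23. The transcripts of the first 2 contain those of Trav11d and Trav7-2 with 1 further base, and Trav11d and Trav7-2 had mean counts of 14.3 and 54.2. A 0 for Trav11 or Trav7d-2 therefore does not separate it from its copy. Trav23 has no copy and is the segment nearest to Traj, 177.3 kb from it. The next, the pseudogene Trav22, was at 0 as well, and Trav21-dv12, at 278.3 kb, was the nearest with counts.

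Identity of the sorted cells was checked with marker lists, in CPM (counts scaled to library size). Foxp3 lay between 991 and 1247 CPM and Cd4 between 476 and 552 CPM in all 6 libraries. Summed levels of the 5 regulatory T cell markers (Foxp3, Il2ra, Ikzf2, Ctla4 and Cd4) were 3579 to 3830 CPM in myeloma and 3389 to 4642 CPM in control libraries, and none of the 5 passed the test. Genes of other T cells were low apart from Cd1d1, and none of those with enough counts to be tested was called, but some sums did not overlap between the groups. The 4 CD8 T cell markers summed to 16.6, 22.3 and 25.2 CPM in myeloma and 12.9, 14.9 and 15.5 CPM in control libraries. Cd8b1 was at 11.9 to 15.4 against 9.83 to 10.6 CPM. Cd8a had counts of 20, 38 and 79 against 15, 38 and 38, and Eomes 20, 23 and 22 against 22, 11 and 36. Gzmk, too low to be tested, had counts of 16, 18 and 9 against 2, 2 and 0. The 5 gamma-delta T cell markers summed to 12.5 to 14.3 against 7.99 to 12.3 CPM, and the 4 natural killer cell markers to 1.86 to 3.48 against 2.32 to 3.04. The 6 immature thymocyte markers (Rag1, Rag2, Dntt, Ptcra, Cd8a and Cd8b1) summed to 14.2 to 30.5 against 15.7 to 37.4 CPM. The 6 genes listed for invariant natural killer and mucosal-associated invariant T cells summed to 78.0 to 83.8 against 89.0 to 97.6 CPM. Most of that sum was Cd1d1, an antigen-presenting molecule that other cells also express, at 72.5 to 81.6 against 86.8 to 93.2 CPM, while Zbtb16, the factor that defines invariant natural killer T cells, was at 0.09 to 0.54 CPM. Of genes of cells outside the T lineage, 2 plasma cell markers and 1 macrophage marker rose, and 2 B cell and 3 red cell markers fell (edgeR, adjusted p under 0.05). By the same test 11.0% of all genes tested were called, 6.33% higher and 4.69% lower. Among the genes of all lists, Trav11 was the one at 0 in every library. The 5 plasma cell markers summed to 229 to 471 CPM in myeloma and 106 to 168 in control libraries, the 5 B cell markers to 26.2 to 64.9 against 39.5 to 248, the 5 macrophage markers to 44.4 to 355 against 33.0 to 83.9, the 5 neutrophil markers to 74.7 to 265 against 34.8 to 96.6, and the 5 red cell markers to 2454 to 2994 against 4257 to 9418. Myeloma replicate 5 had the highest sum of the CD8, gamma-delta, natural killer, plasma cell and macrophage lists. Myeloma replicate 4 had that of the neutrophil list, and a control library that of every other list. The part of cells other than regulatory T cells in the Trav values was not tested. Because a share is taken within Trav, it does not depend on RNA that carries no Trav transcripts, but CD8 and invariant T cells carry them.

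No segment dominated any library. Trav9n-4, at 53294341 to 53295030 on chromosome 14, had the highest mean share, 4.44% of Trav counts. Its shares were 3.98%, 3.08% and 8.07% in the myeloma libraries, and 3.96%, 4.06% and 3.47% in the control libraries. Only myeloma replicate 5 stood apart, with 163 of its 2019.5 Trav counts on this segment (Wilson 95% interval of the share 6.96% to 9.34%), and the groups overlapped. Trav6-5 was next, with shares of 2.78%, 5.13% and 2.20% in myeloma and 3.54%, 2.75% and 3.66% in control libraries. Its highest value came from myeloma replicate 4 and its lowest from myeloma replicate 5, with the controls between. Trav16n took 4.21%, 3.17% and 2.14% in myeloma and 4.02%, 1.68% and 2.59% in control libraries. The first library of each group was the high one for this segment, and the groups overlapped. Trav9-2, Trav7-4, Trav7-2, Trav4-4-dv10, Trav3-3, Trav9-1 and Trav6-7-dv9 completed the 10 leading segments, with mean shares of 2.37% to 2.81%.

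**Figure D1:**
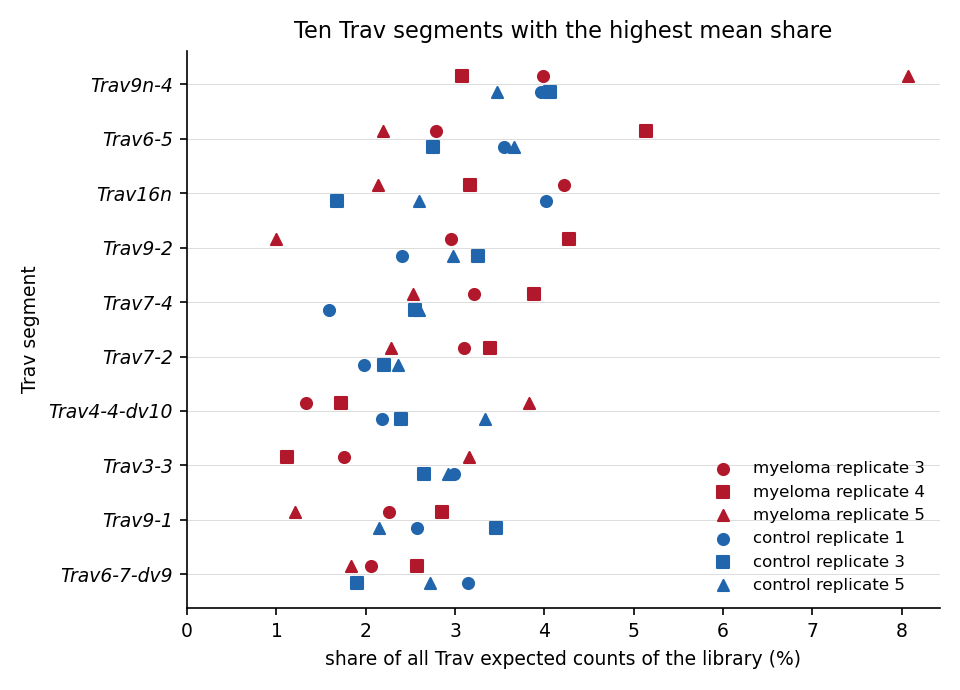
Share of all Trav expected counts of a library (%, horizontal axis) for the 10 segments with the highest mean share over the 6 libraries; each point is 1 library, red for myeloma and blue for control. Trav9n-4 reached 8.07% in myeloma replicate 5, and in the other libraries no segment shown passed 5.13%.

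For Trav9-2, Trav3-3 and Trav4-4-dv10 the SD within the myeloma group, 1.65, 1.04 and 1.34 percentage points, exceeded the difference between the group means. Trav9-2 had shares of 2.96%, 4.28% and 0.996% in myeloma libraries and 2.40%, 3.25% and 2.98% in controls. Trav3-3 had 1.76%, 1.12% and 3.15% against 2.99%, 2.65% and 2.92%. Trav9-2 was lower in myeloma replicate 5 than in any control, and Trav3-3 was lower in myeloma replicates 3 and 4. Trav4-4-dv10 had shares of 1.33%, 1.73% and 3.82% in myeloma and 2.18%, 2.40% and 3.33% in control libraries. Here myeloma replicate 5 was the highest and the other myeloma libraries were the lowest of all 6.

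Levels between segments can be compared only per length, for which the authors' TPM (a transcript level scaled by effective length) served. On this scale Trav6-5 led with a mean of 48.5 TPM, followed by Trav7-2 with 47.0, Trav16n with 41.3 and Trav4-4-dv10 with 37.9. Trav9n-4, first by counts, was at position 11 with 27.9 TPM. The median Trav transcript is 353.5 bases long with an effective length of 153.7 bases, and a rearranged transcript continues into Traj and Trac, which the annotation lists as separate genes.

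Adding the copies of a segment gave a different order. The Trav4-4 set led with 6.68% of Trav counts on average, followed by Trav9-4 with 6.28%, Trav3-3 with 5.25%, Trav6-7 with 5.0% and Trav12-2 with 4.46%. For the Trav4-4 set, summed counts were 101, 125 and 210 in myeloma and 158, 98 and 147 in control libraries. Those of the Trav9-4 set were 126, 87.9 and 205 in myeloma and 133, 93.2 and 151 in control libraries. In both sets myeloma replicate 5 was the highest library. Within the Trav9-4 set Trav9d-4 had 14.5 counts in myeloma replicate 4 and 36.5 in control replicate 5, and none in the other 4 libraries, while Trav9n-4 had counts in all 6. The 2 segments are alike over the 60 bases shown above, and their annotated coding lengths are 310 and 340 bases.

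Diversity of the shares was expressed as effective numbers, the number of equally used segments that would give the same index. The Shannon effective number was 69.3, 64.1 and 60.2 in the myeloma libraries and 66.8, 70.7 and 70.0 in the control libraries. The means were 64.5 ± 4.58 (SD, n = 3) and 69.2 ± 2.07 (SD, n = 3), a difference of -4.65 (two-sided exact permutation test, p = 0.2; p = 0.467 after Benjamini-Hochberg adjustment over the 28 values per library that were tested this way, alternatives not counted). Myeloma replicate 3 lay among the controls and the other 2 myeloma libraries below them. The Simpson effective number, which weights common segments, was 56.6, 48.9 and 41.5 in myeloma and 53.2, 58.6 and 57.2 in control libraries. Its difference was -7.34 (exact permutation test, p = 0.2, adjusted p = 0.467), again with myeloma replicate 3 among the controls. With 3 libraries against 3, this test cannot give a p below 0.1.

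Groups did not overlap in the largest single share. It was 4.21% (Trav16n), 5.13% (Trav6-5) and 8.07% (Trav9n-4) in the myeloma libraries, and 4.02% (Trav16n), 4.06% (Trav9n-4) and 3.66% (Trav6-5) in the control libraries. The same 3 segments thus led in both groups. The means were 5.81% ± 2.02 and 3.92% ± 0.220 (SD, n = 3 each; exact permutation test, p = 0.1, the smallest that it can give; adjusted p = 0.4). The difference between the means was 1.89 percentage points, and 0.757 without myeloma replicate 5. Per length, in TPM, the largest share was 4.23%, 5.53% and 4.46% in myeloma and 3.98%, 3.26% and 3.87% in control libraries, a difference of 1.04 percentage points (exact permutation test, p = 0.1), with myeloma replicate 4 the highest. Intervals of the lowest myeloma and the highest control share, 3.50% to 5.07% and 3.25% to 5.08% (Wilson, 95%), covered each other. With copies summed, the groups overlapped, at 5.73%, 6.63% and 10.4% in myeloma and 7.33%, 6.47% and 6.88% in control libraries (exact permutation test, p = 0.9). The Shannon effective number of copy sets was 34.5, 33.0 and 28.4 in myeloma and 32.3, 34.4 and 31.9 in control libraries, a difference of -0.899 (exact permutation test, p = 0.9).

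The mean number of segments seen ran the other way from the effective numbers. As observed, it was 99, 98 and 98 in myeloma and 95, 98 and 98 in control libraries, which overlapped (exact permutation test, p = 0.6, adjusted p = 0.84). At an equal Trav total, that of the smallest library (1816 rounded counts), 97.3, 97.8 and 97.3 segments were expected above 0 in the myeloma libraries and 93.4, 97.0 and 95.3 in the control libraries. At that total all myeloma values were above all control values, by 2.24 segments on average (exact permutation test, p = 0.1, adjusted p = 0.4). Both copies of an identical pair were counted here, and copies were not summed for this value. The share of the second segment did not overlap either, at 3.98%, 4.28% and 5.76% in myeloma and 3.96%, 3.46% and 3.47% in control libraries (exact permutation test, p = 0.1, adjusted p = 0.4).

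**Figure D2:**
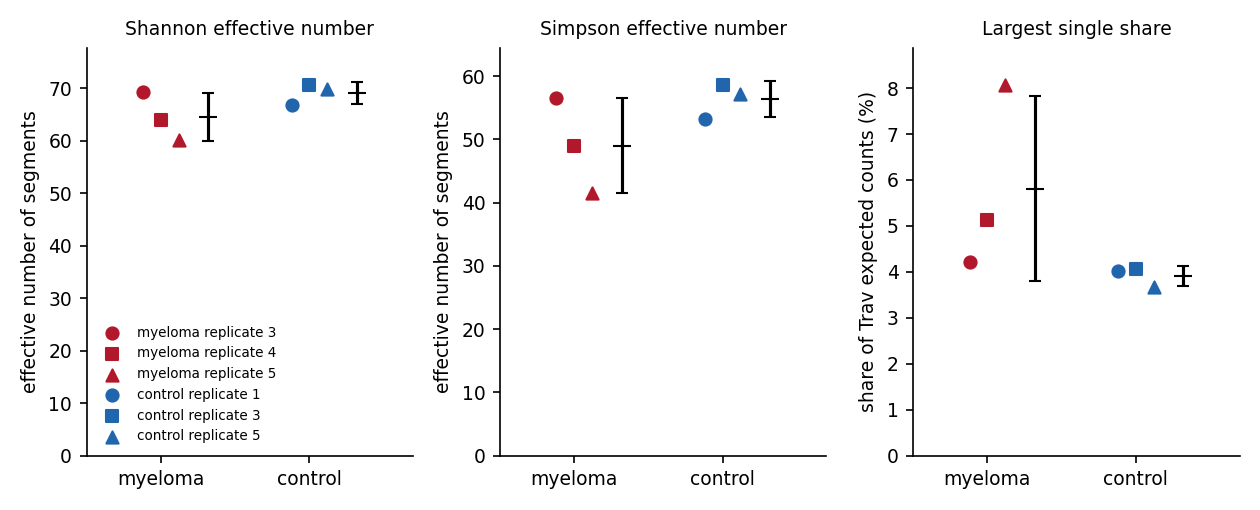
Effective numbers of Trav segments by the Shannon and the Simpson index and the largest share of a single segment (%) in each library; points are libraries, and black marks are the group mean ± SD (n = 3). Myeloma replicate 5 had the lowest effective numbers, 60.2 and 41.5, and the highest single share, 8.07%; the effective numbers of the groups overlapped.

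The 17 to 22 most used segments made up 50% of Trav counts in the myeloma libraries, and the 20 to 23 most used in the controls. The 10 most used segments of each library took 29.4%, 34.5% and 36.8% in myeloma and 31.8%, 28.3% and 29.6% in control libraries. Myeloma replicates 4 and 5 were above all controls, and replicate 3 was between them. In myeloma replicate 5, the second segment was Trav14d-3-dv8 with 5.76%, a segment that took 0.38% to 2.16% in the other 5 libraries. Its expected counts were 28.2, 20 and 116 in myeloma and 8.65, 27.4 and 47.4 in control libraries.

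Libraries of 1 group were on average no more alike in their segment use than libraries of different groups. Bray-Curtis dissimilarity, 0 for equal shares and 1 for no shared segment, was 0.207 to 0.222 between control libraries (3 pairs), 0.231 to 0.311 between myeloma libraries (3 pairs) and 0.188 to 0.303 between a myeloma and a control library (9 pairs). The mean between groups was 0.245 and the mean within groups 0.247, a difference of -0.00144 (exact permutation of the libraries, p = 0.7, adjusted p = 0.852). The 3 control pairs all lay below the 3 myeloma pairs, an order for which no test was made. Chi-square per degree of freedom over copy sets was 2.85 to 9.31 for the 15 pairs, where counting alone gives 1, and each library was counted as a sample of its own.

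Position along the locus was not used to choose the segments. Weighted by share, the mean distance of a segment from the first Traj was 831, 811 and 830 kb in the myeloma libraries and 805, 812 and 804 kb in the control libraries. The difference was 16.8 kb (exact permutation test, p = 0.2, adjusted p = 0.467), and myeloma replicate 4 lay among the controls. The segments were also divided by order into 3 blocks of 42, 43 and 43, a division chosen after the shares had been seen. The upstream block holds 34 d copies and 8 segments without a letter, the middle block all 34 n copies with 5 d copies and 4 without a letter, and the block nearest to Traj 43 segments without a letter. The nearest block took 42.5%, 45.5% and 42.1% of Trav counts in myeloma and 45.6%, 46.1% and 48.2% in control libraries. The myeloma values were all below the control values, although the highest of them (45.5%) was next to the lowest control value (45.6%), with a mean difference of -3.23 percentage points (exact permutation test, p = 0.1, the smallest possible; adjusted p = 0.4). The groups overlapped when segments with a mean under 10 counts were left out (p = 0.3), without pseudogenes (p = 0.2) and without dv segments (p = 0.2, exact permutation tests), with differences of -3.54, -3.29 and -2.52 percentage points. With the locus split into a pair of equal blocks in place of 3, the difference was -0.444 percentage points (exact permutation test, p = 0.9).

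The counterpart of that difference lay in the middle block, with 35.2%, 33.3% and 37.7% in myeloma and 33.0%, 32.6% and 30.8% in control libraries. All myeloma values were above all control values (exact permutation test, p = 0.1, adjusted p = 0.4). The upstream block took 22.3%, 21.2% and 20.2% in myeloma and 21.4%, 21.3% and 21.0% in control libraries, with overlap. When 50% of the segments were counted as near, the difference was -0.44 percentage points (exact permutation test, p = 0.9), so it depended on where the line was drawn. Since identical d and n copies share their reads, the division between the upstream and the middle block is partly RSEM's. The same holds for the nearest block: the identical pair Trav6d-6 (upstream) and Trav6-6 (nearest) held 2.58% of Trav counts.

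**Figure D3:**
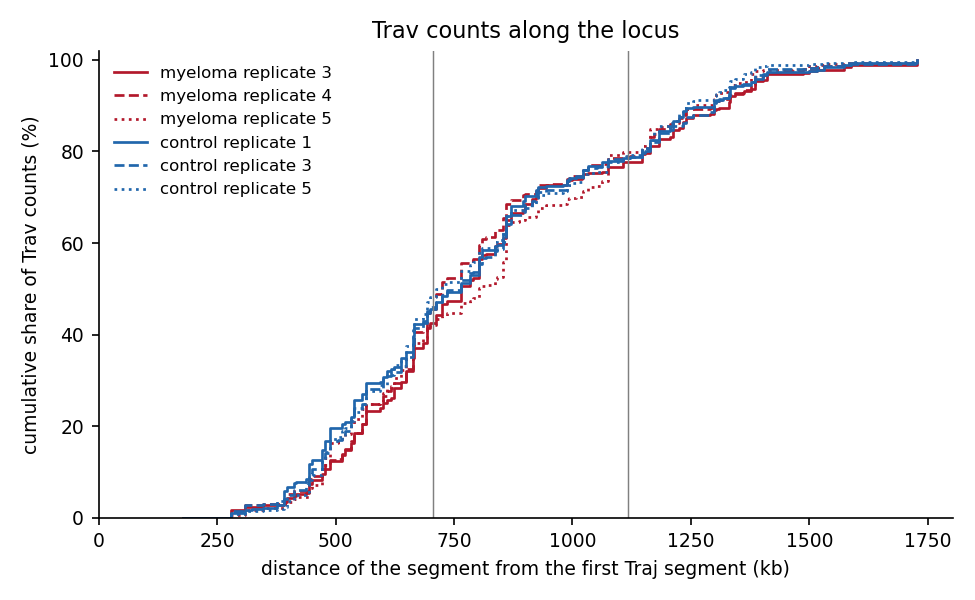
Cumulative share of Trav counts (%) against distance from the first Traj segment (kb), 1 line per library; grey vertical lines separate the 3 blocks. The curves of the 6 libraries run close together, and at the first grey line the myeloma libraries stand at 42.1% to 45.5% and the control libraries at 45.6% to 48.2%.

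Differential expression was tested for all genes with edgeR's quasi-likelihood test, myeloma against control, with p-values adjusted by Benjamini and Hochberg's method for the 13235 genes that passed the filter on low counts (a threshold of 0.05). Of the 128 segments 68 passed the filter, with 91.9% of Trav counts, and 60 did not. None rose and 1 fell, Trav7-6, whereas 11.0% of all genes tested were called, 6.33% higher and 4.69% lower. Unadjusted p was under 0.05 for 3 segments, the other two being Trav7-5 and Trav7-4. The median log2 fold change of the 68 was 0.25, beside 0.02 for all genes tested, with 41 segments above 0 and 27 below. Their SEs ran from 0.32 to 1.03 with a median of 0.53. Among these 68, CPM of the groups did not overlap for 10 segments (14.7%), 8 higher and 2 lower in myeloma, while this held for 33.3% of all genes tested. Both shares were below those of the whole table, which also holds genes with far higher counts. For calls and overlap no comparison with genes of similar counts was made, so the lower shares do not set the segments apart. Of the 68 segments, 20 belong to identical pairs, so these counts hold some measurements in 2 rows. Over the 37 copy sets tested, the median log2 fold change was 0.19, with 28 above 0 and 9 below. CPM of the groups did not overlap for 10.8% of these sets.

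Trav7-6, at 53716716 to 53717291 on chromosome 14, lies 437.7 kb from the first Traj. Its expected counts were 3.0, 2.2 and 3.5 in the myeloma libraries and 15.4, 29.0 and 15.1 in the control libraries. Every myeloma library was below every control library, at 0.119%, 0.117% and 0.173% of Trav counts against 0.676%, 1.60% and 0.684%. The log2 fold change was -2.49 (SE 0.66, edgeR adjusted p = 0.043). By summed counts, 9 against 59, the control level was 5.67-fold that of myeloma, with a counting interval of 2.79 to 13.0 (exact, 95%). The call rested on every library: without any 1 of them the edgeR adjusted p was 0.0704 (myeloma replicate 5 left out) to 0.215 (control replicate 3 left out), and it was 0.0766 with no filter on low counts. Its n copy, Trav7n-6, had 0.98 counts in myeloma replicate 3 and none elsewhere, and the set of both copies had a log2 fold change of -2.35 (SE 0.65, edgeR adjusted p = 0.0497).

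**Figure D4:**
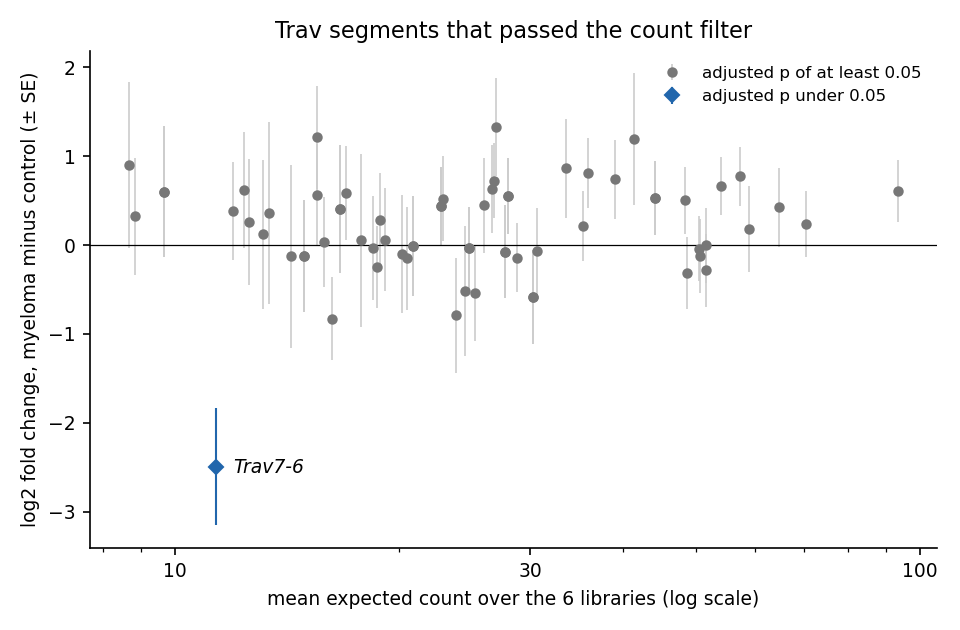
Log2 fold change (myeloma minus control, ± SE) of the 68 segments that passed the count filter, against the mean expected count over 6 libraries (log scale). Trav7-6, the blue diamond at -2.49, is the segment with an adjusted p under 0.05; the others lie between -0.83 and 1.33.

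The remaining Trav7 segments tested had positive log2 fold changes, and none passed the test. Trav7-5 had expected counts of 53, 21 and 37 in myeloma and 9, 12 and 30 in control libraries, with a log2 fold change of 1.33 (SE 0.55, edgeR adjusted p = 0.153). Control replicate 5, with 30 counts, exceeded myeloma replicate 4, so the groups overlapped. Trav7-4 had counts of 80.6, 73.3 and 51.1 in myeloma and 36.2, 46.3 and 57.1 in control libraries (log2 fold change 0.77, SE 0.33, edgeR adjusted p = 0.169). Trav7-2 had 78, 64 and 46 against 45, 40 and 52 (log2 fold change 0.67, SE 0.32, edgeR adjusted p = 0.219). In CPM both had all myeloma values above all control values, 4.55 to 7.25 against 2.81 to 4.14 for Trav7-4 and 4.11 to 6.60 against 3.44 to 3.77 for Trav7-2. The identical pair Trav7d-5 and Trav7n-5, too low to be tested, took 0.0990% to 0.133% each in myeloma and 0.318% to 0.358% each in control libraries. Summed with these copies, Trav7-5 had 59, 26 and 41 counts in myeloma and 24, 25 and 44 in control libraries. The log2 fold change of the set was 0.64 (SE 0.42, edgeR adjusted p = 0.363).

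Other segments with large fold changes did not pass the test. Trav8d-1 had counts of 10, 19.8 and 32.3 in myeloma and 12.3, 8.84 and 9.78 in control libraries (log2 fold change 1.21, SE 0.58, edgeR adjusted p = 0.213), and myeloma replicate 3 lay among the controls. Trav14d-3-dv8 had a log2 fold change of 1.19 (SE 0.74, edgeR adjusted p = 0.338), which came from myeloma replicate 5: without that library it was 0.01. Trav13n-4 had counts of 11, 8 and 13 against 0, 5 and 15 (log2 fold change 0.90, SE 0.93, edgeR adjusted p = 0.577). Trav16, a copy of Trav16n named after its values were seen, was the other tested segment with all myeloma libraries below the controls, at 10.7, 9.29 and 11.7 counts against 21.7, 20.3 and 23.7 (log2 fold change -0.83, SE 0.47, edgeR adjusted p = 0.285). Summed with its d and n copies it had 144, 71 and 64 counts in myeloma and 124, 56 and 105 in control libraries, which overlapped.

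Families, the sums over segments with the same number, are less affected by the split between copies. Of the 23 families 17 passed the filter and none was called, where 11.1% of all genes in that fit were called, and Trav7 alone had an unadjusted p under 0.05. Trav6 was the most used family with a mean share of 15.8%, followed by Trav9 with 13.7%, Trav7 with 12%, Trav14 with 10.4% and Trav4 with 10.1%. Trav7 had summed counts of 362, 278 and 222 in myeloma and 210, 213 and 241 in control libraries. Its share was 13.4% ± 2.09 in myeloma and 10.6% ± 1.27 in control libraries (SD, n = 3 each), with 11.0% in myeloma replicate 5 below the 11.7% of control replicate 3. On the CPM scale its log2 fold change was 0.58 (SE 0.17, edgeR adjusted p = 0.0628). It passed the threshold without myeloma replicate 5 (edgeR adjusted p = 0.0139) and with no filter on low counts (0.0228).

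Trav4 had family counts of 201, 185 and 299 in myeloma and 218, 153 and 216 in control libraries (log2 fold change 0.44, SE 0.20, edgeR adjusted p = 0.194). Log2 fold changes of Trav6, Trav9 and Trav14 were 0.20, 0.18 and 0.20, with edgeR adjusted p-values of 0.476, 0.389 and 0.491. In CPM, 4 of the 17 families did not overlap between groups, Trav9, Trav7, Trav4 and Trav10 (the last named after its values were seen), all higher in myeloma. This is 23.5% of the families, against 33.3% of all genes in that fit. Trav3, named after its values were seen, was the one of these 17 families whose shares did not overlap, at 5.57%, 3.50% and 4.31% in myeloma and 8.30%, 7.20% and 5.91% in control libraries. Its CPM did overlap, with a log2 fold change of -0.43 (SE 0.28, edgeR adjusted p = 0.354).

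Of the segments that invariant T cells use, Trav11d and Trav1 passed the filter on low counts, which 60 of the 128 segments did not. The Trav11 and Trav1 families had mean shares of 0.701% and 0.723%. Trav11d had expected counts of 33.9, 5 and 0 in myeloma and 12, 20 and 15 in control libraries, with Trav11 at 0 in all 6. Myeloma libraries held both the highest and the lowest value of Trav11d, and the log2 fold change was -0.13 (SE 1.03, edgeR adjusted p = 0.953). Trav1, the segment of mucosal-associated invariant T cells, had 28, 12 and 13 counts in myeloma and 16, 16 and 8 in control libraries (log2 fold change 0.57, SE 0.57, edgeR adjusted p = 0.564). Its highest count came from myeloma replicate 3 and its lowest from control replicate 5, and the groups overlapped.

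The 10 segments with dv in their names, which can serve both the alpha and the delta chain, took 8.99%, 8.89% and 14.0% of Trav counts in myeloma and 8.37%, 9.86% and 12.1% in control libraries. The fifth replicate was the highest of each group, and the groups overlapped. Of the 10, 7 were tested and none was called, beside 11.0% called among all genes tested. With so few segments, the absence of a call does not set them apart from other genes. Trav4-4-dv10 and Trav6-7-dv9, the most used, had log2 fold changes of -0.01 (SE 0.42) and -0.04 (SE 0.36), with edgeR adjusted p-values of 0.995 and 0.958. Trdc, the constant gene of the delta chain, was at 6.75 to 11.3 CPM in myeloma and 5.23 to 7.90 CPM in control libraries (log2 fold change 0.39, SE 0.30, edgeR adjusted p = 0.43).

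Summed over all segments, the Trav level was 213, 187 and 180 CPM in the myeloma libraries and 178, 156 and 160 CPM in the control libraries. All myeloma libraries were above all controls, with 180 CPM in myeloma replicate 5 next to 178 CPM in control replicate 1. The means were 193 ± 17.2 and 164 ± 11.6 CPM (SD, n = 3 each), a log2 fold change of 0.23 (SE 0.09) with an edgeR adjusted p of 0.141, which did not pass the threshold. Trac was at 798, 758 and 709 CPM in myeloma and 708, 542 and 514 CPM in control libraries (log2 fold change 0.36, SE 0.13, edgeR adjusted p = 0.103). Control replicate 1 was close to the myeloma libraries, and without it Trac passed the threshold (edgeR adjusted p = 0.0237), as it did with no filter on low counts (0.035) and with DESeq2 (0.0274). In bulk RNA, fewer cells with a transcript and less transcript per cell cannot be told apart.

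Trav counts came to 26.7%, 24.7% and 25.4% of Trac counts in myeloma and 25.1%, 28.8% and 31.1% in control libraries. The difference was -2.74 percentage points (exact permutation test, p = 0.3, adjusted p = 0.494), and control replicate 1 lay among the myeloma libraries.

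**Figure D5:**
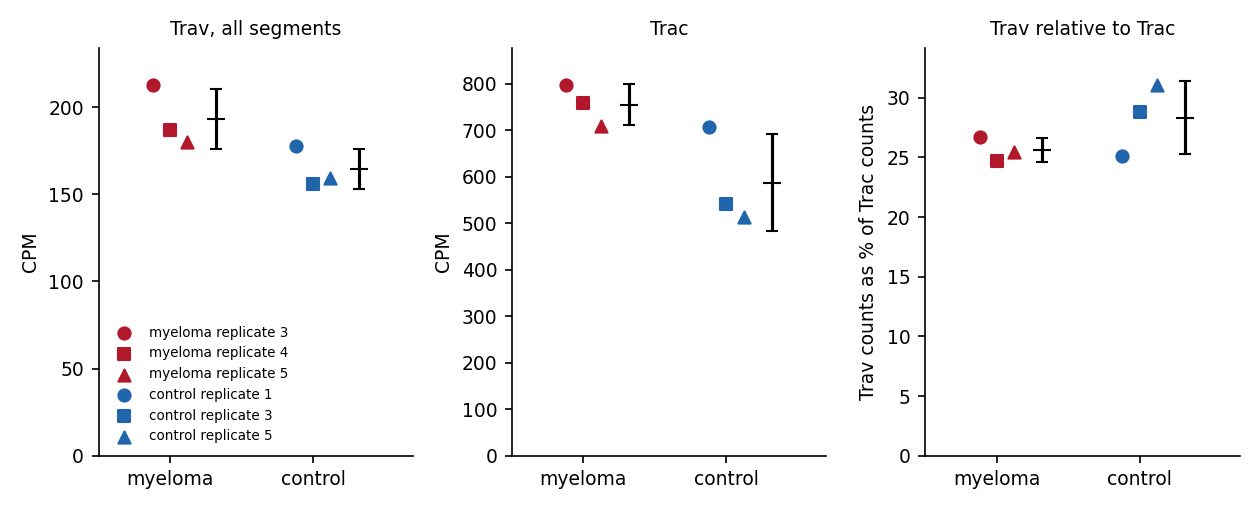
Summed level of all Trav segments and level of Trac (CPM with TMM-scaled library sizes), and Trav counts as a percentage of Trac counts; points are libraries, and black marks are the group mean ± SD (n = 3). Summed Trav was 180 to 213 CPM in myeloma and 156 to 178 CPM in control libraries, and the percentages overlapped.

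The variability that edgeR fitted for the segments was near that of other genes of their level. In its fit the value of each gene is drawn towards that of genes of similar level, so this nearness is partly built in. The fitted biological coefficient of variation had a median of 0.428 over the 68 Trav segments. Over 3758 other genes in the same range of mean CPM it was 0.401. It was 0.353 for the 37 copy sets tested and 0.096 for the summed Trav row.

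Beside Trav, 24 genes of the receptor, its signalling chain and its recombination were examined, of which 23 passed the filter. Cd3g, a subunit of the CD3 complex that carries the receptor's signal, was the one called, and it rose, beside 11.0% called among all genes tested. Its level was 500, 486 and 439 CPM in myeloma and 389, 383 and 332 CPM in control libraries (log2 fold change 0.37, SE 0.10, edgeR adjusted p = 0.0416). The call was kept without myeloma replicate 5 and lost when any other library was left out (edgeR adjusted p = 0.0627 to 0.137), with library sizes alone (0.0902) and with upper-quartile factors (0.0512). None fell, and the median log2 fold change of the 23 was 0.02, the same as for all genes tested. Cd3d, another CD3 subunit, had a log2 fold change of 0.34 (SE 0.10, edgeR adjusted p = 0.052), and those of Cd3e and Cd247 were 0.04 and 0.01. The constant genes of the beta chain, Trbc1 and Trbc2, had log2 fold changes of 0.01 (SE 0.11) and -0.01 (SE 0.09). Of 35 Trbv segments, the variable segments of the beta chain, 22 were tested and none was called, beside the same 11.0%, with a median log2 fold change of -0.26. Rag1, a subunit of the recombinase that joins receptor segments, was at 0.17, 2.58 and 4.64 CPM in myeloma and 2.97, 20.9 and 19.7 CPM in control libraries (log2 fold change -2.56, SE 0.89, edgeR adjusted p = 0.0974). B cell markers were high in the same 2 control libraries, replicates 3 and 5, and their part in the Rag1 level was not tested.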

How the data were processed

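The authors deposited 1 RSEM gene table per library. Per the file headers it holds expected counts, which RSEM estimates and which are not normalized, and TPM, which the authors' RSEM run scaled by library total and effective length, beside the lengths themselves. STAR, RSEM, Picard and DESeq2 and the build mm10 stand in the submitters' processing notes, without versions. Replicates were not pooled. The library kit, per the labels' protocols, is NEBNext Ultra, which does not mark strand.

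Gene names came from the reference table for 47224 of 47643 identifiers, and the other 419 kept the deposited name. All 167 Trav transcripts were found in GENCODE M21 with the same version. Shares, effective numbers, dissimilarity and distances were computed from expected counts, and tested with two-sided exact permutation tests over libraries (scipy 1.17.1). For edgeR 4.0.16 (R 4.3.3), expected counts were rounded and filtered with filterByExpr (minimum count 10, minimum total 15), TMM factors were computed, and glmQLFit with glmQLFTest gave p-values that were adjusted by Benjamini and Hochberg's method. The SE was taken as the fold change on the log2 scale over the root of the F statistic. CPM uses TMM-scaled library sizes. The code of the test and of the diversity measures was checked on simulated data. Genes simulated for the test varied less than the Trav segments did in the fit. That check therefore does not show how well the test works for these segments. Alternatives included DESeq2 1.42.0 and limma-voom (limma 3.58.1), other scalings and filters, TPM, summed copies and leaving out each library.

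Segments named are the 10 with the highest mean share, the leading segment of each library, those called, the 5 with the largest fold change, Trav11, Trav11d and Trav1, their copies, and examples with dv; families named are the 5 most used. The members, lists and tests were chosen with earlier results of these data known. The genes Trgc1, Trgc2 and Trgc4 of the receptor list are Tcrg-C1, Tcrg-C2 and Tcrg-C4 in the tables.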

Additional observations from a re-analysis of the deposited data

How the results depend on the processing

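No Trav segment was called higher under any of the 17 alternatives run. The 1 segment called lower, Trav7-6, became 0 with no filter on low counts, with DESeq2 (which gave it no adjusted p), with limma-voom and with each library left out in turn (0 to 0). The count was the same with RLE, upper-quartile or no scaling factors, a filter of 1 CPM in 3 samples, robust dispersions, summed copies, and without immunoglobulin and haemoglobin genes. Families called higher were 1 with no filter and 1 with DESeq2, and 0 to 1 with a library left out; none was called lower. Of the receptor genes beside Trav, 0 rose with upper-quartile factors and with library sizes alone, 3 with no filter and with DESeq2, 2 with limma-voom and with robust dispersions, and 0 to 2 with a library left out; 2 fell with no filter and 0 to 1 with a library left out. The cause of these changes was not tested. Under library sizes alone the median of all genes moved from 0.02 to -0.05.

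The difference in Bray-Curtis dissimilarity changed sign, to 0.000268 for segments with a mean of at least 10 counts and to 0.00313 without dv segments, and ran from -0.0273 to 0.0263 with a library left out. Effective numbers, the largest share, the distance, the Trav to Trac percentage and the summed Trav level kept their direction. The summed level stayed short of the threshold throughout. With a library left out, the Shannon difference was -7.04 to -2.48, the Simpson difference -11.1 to -3.62 and that of the largest share 0.757 to 2.69 percentage points. The effective numbers differed less between groups when copies were merged, which also makes the numbers themselves smaller. With copies summed the Shannon difference was -0.899 and the Simpson difference -1.02 (exact permutation tests, p = 0.9 each). With families in place of segments they were -0.28 and -0.38 (exact permutation tests, p = 0.5 and 0.3). Among named segments that were not called, the log2 fold change changed sign in leave-one-out fits for Trav11d (-2.33 to 0.45), Trav3-3 (-0.69 to 0.00636), Trav4-4-dv10 (-0.52 to 0.22), Trav6-5 (-0.16 to 0.49), Trav6-7-dv9 (-0.25 to 0.18), Trav9-1 (-0.36 to 0.18) and Trav9-2 (-0.23 to 0.59, and -0.0812 with limma-voom). The lower share nearest to the Traj segments kept its sign, at -4.28 to -2.44 percentage points with a library left out and -4.80 with the replicate block, but its groups overlapped under 4 of the alternatives.

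Replicate numbers 3 and 5 occur in both groups, but no label ties them to a shared animal or day. Deviations of same-numbered libraries correlated at 0.0167 (number 3) and 0.102 (number 5), and those of differently numbered libraries at -0.0910 to 0.0631. The value for number 5 was thus the highest of all pairs across the groups. With the replicate block, log2 fold changes were 0.0802 for Trav3-3, -0.0578 for Trav6-5, 0.0926 for Trav6-7-dv9 and -0.51 for Trav9-2. In that fit 0 segments, 0 families and 0 receptor genes were called. Myeloma replicate 4 and control replicate 1 have no partner there, so only replicate numbers 3 and 5 inform the group difference. This leaves almost nothing to estimate the spread from, so the absence of calls cannot show whether a result holds. Depth limits the values per segment: with 1818 to 2515 Trav counts a library, 60 of 128 segments were too low to be tested.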
